A study of Aedes aegypti with 6 samples.

Results

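The genes described here are the sex determination gene doublesex and the transformer-2 paralogues of the yellow fever mosquito, Aedes aegypti. They were chosen by identifier: AAEL009114 for doublesex, and AAEL004293, AAEL006416, AAEL009222 and AAEL009224 for transformer-2. Of these 5 genes, 3 could be analysed, AAEL009114, AAEL004293 and AAEL009224, among 12813 genes in all, and they are called the measured genes below. AAEL006416 and AAEL009222 were not analysed here, so the transformer-2 family is described through 2 of its 4 listed paralogues. The 3 genes are represented by 4 transcript rows among 13471, since AAEL009224 has a row RA and a row RB, and the other genes have only a row RA. The names come from the list of identifiers, and neither the table nor the reference used here pairs them with these identifiers, so they could not be checked against either source.

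Testes of early male pupae were compared between T37, a meiotic drive strain, and RED, a strain that does not drive. Each strain was represented by 3 one-colour arrays, each hybridised with total RNA from a separate extraction of testes. Mosquitoes of T37 and of RED grew under the same conditions, at a temperature of 26°C, a humidity of 80% and a day of 16 h light and 8 h dark. With 1 strain of each kind, the drive cannot be told apart from other differences between the strains, and how many males were pooled in an extract is not stated. Marker genes of the testis could not be looked up, because the identifiers carry no names, so the tissue label was not checked.

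In insects the choice of sex ends in sex-specific splicing of doublesex, whose male and female proteins are DM-domain transcription factors that direct sexual differentiation of the body. In Drosophila, transformer-2 encodes an RNA-binding protein that acts together with Transformer to produce the female splice form of doublesex, and it has a separate function in the male germ line. In Aedes aegypti the male is determined by a dominant factor at the M locus, Nix, which is a distant relative of transformer-2, and the meiotic drive of this species is linked to the same locus. In Drosophila testes, doublesex is known from somatic cells of the gonad. A bulk sample cannot tell fewer cells of a type from less RNA per cell, and the array rows used here were not assigned to male or female splice forms.

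The intensities are RMA values, which are background-corrected, normalised and summarised over several probes by the authors, and they are given below on the deposited linear scale or as log2. Median intensity over all rows was between 1836 and 1985 on the 6 arrays, and the highest values lay between 63018 and 64205. The dim end differed more. On the log2 scale, the 5th percentile over genes was 6.94, 6.99 and 7.37 on T37 replicates 1, 2 and 3. It was 7.61, 7.45 and 6.47 on RED replicates 1, 2 and 3. RED replicate 3 had the lowest correlations within a strain, with log2 intensities at r = 0.874 and 0.891 to the other RED arrays across genes, which are not independent replicates. RED replicates 1 and 2 correlated at 0.974 and T37 replicates 1 and 2 at 0.983, while T37 replicate 3 was at 0.948 and 0.958 to its partners. Between the strains, r was 0.889 to 0.908 for RED replicate 3 and 0.893 to 0.940 for the other RED arrays. The values of doublesex that rest on RED replicate 3 are given with and without it.

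The comparison asked whether these genes were expressed at other levels in testes of the driving strain than in testes of the non-driving strain. No measured sex determination gene differed between the strains at an adjusted p under 0.05. The means of both transformer-2 genes were higher in T37, by 1.30-fold for AAEL004293 and 1.38-fold for AAEL009224, and 49.3% of all genes had the higher mean in T37. The doublesex means were close to each other, and this closeness rested on RED replicate 3. By limma with Benjamini-Hochberg adjustment over all genes, 0 of the 3 genes passed, where 4.53% of all 12813 genes did, and 0 of 3 had an unadjusted p under 0.05, where 22.7% of all genes did. The share of all genes called depended on single arrays: it was 0.117%, 0.078% and 2.44% without T37 replicates 1, 2 and 3, and 0.648%, 0.289% and 7.47% without RED replicates 1, 2 and 3. The strains' arrays did not overlap in 1 of the 3 genes, with T37 above RED. This was the case in 15.4% of all genes, and in 28.7% the arrays did not overlap in either direction.

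**Figure D1:**
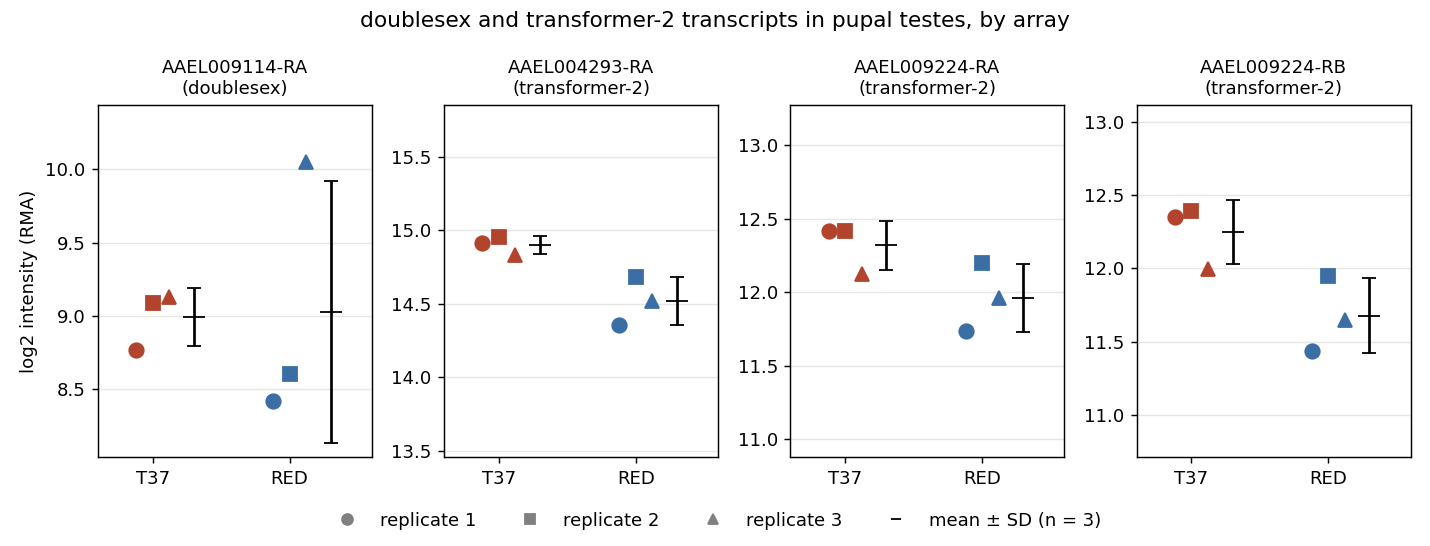
Log2 intensity (RMA) of the 4 measured rows in T37 and RED testes, with 1 point per array, the replicate shown by its shape, and the mean ± SD of 3 arrays at the right of each strain. Each panel spans the same range of log2 units at its own height. For doublesex, RED replicate 3 lies at 10.05, above every other array, while AAEL004293 and row RB of AAEL009224 have all T37 points above all RED points.

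Doublesex, the transcription factor at the end of the pathway, was dim. Its row AAEL009114-RA had intensities of 436, 543 and 559 in T37 replicates 1, 2 and 3. In RED replicates 1, 2 and 3 it had 344, 390 and 1060. All T37 arrays thus lay above RED replicates 1 and 2 and below RED replicate 3, so the strains overlapped. On the log2 scale the gene averaged 8.99 ± 0.20 in T37 testes and 9.03 ± 0.89 in RED testes (SD over 3 arrays of each strain). The difference, T37 minus RED, was -0.03 (SE 0.45, 95% interval -1.12 to 1.06; limma adjusted p = 0.98). As a ratio of T37 to RED, the interval reaches from 0.459-fold to 2.08-fold.

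The spread of doublesex in RED came from a single array. RED replicate 3 lay 1.53 above the mean of RED replicates 1 and 2 on the log2 scale, or 2.90-fold. Genes that exceeded this gap numbered 529, or 4.13% of all genes, and among the 1000 genes nearest in mean brightness the share was 5.4%. RED replicate 3 was the brightest of the 6 arrays in 3220 genes, 25.1% of all. In 493 genes, 3.85%, it was the brightest while all T37 arrays lay above RED replicates 1 and 2, which is the arrangement that doublesex showed. Over all genes this array departed from its partners in both directions, at least 2-fold above their mean in 9.59% of the genes and at least 2-fold below it in 14.1%. The T37 arrays spread less for doublesex, with an SD of 0.20 that 78.8% of genes of like brightness exceeded.

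Without RED replicate 3, the doublesex difference was 0.48, with T37 higher (95% interval -0.02 to 0.98; limma adjusted p = 0.17), where 7.47% of all genes were called. It was 0.41 (limma adjusted p = 0.18) without the third replicate of both strains, where 32.9% of all genes were called. The sign of the doublesex difference also changed with the scaling of all 6 arrays, at 0.14 after quantile normalisation, 0.07 after cyclic loess and -0.05 after median centring of the arrays. When RED replicate 3 was left out before the arrays were scaled, it was 0.67 after quantile normalisation (limma adjusted p = 0.084) and 0.69 after cyclic loess (limma adjusted p = 0.077). No direction can therefore be given for doublesex.

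**Figure D2:**
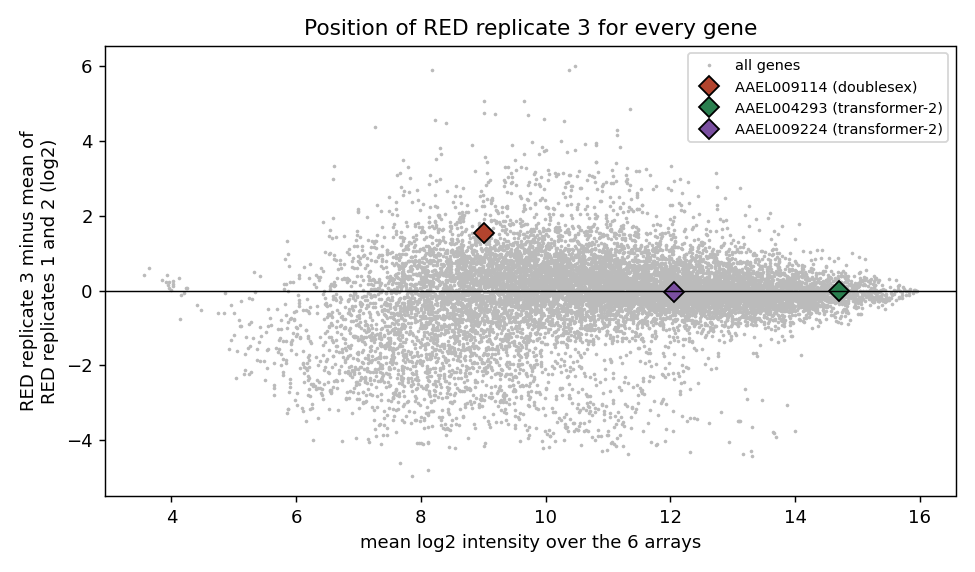
Log2 gap between RED replicate 3 and the mean of RED replicates 1 and 2 (vertical axis) against mean log2 intensity over the 6 arrays (horizontal axis), for each of the 12813 genes in grey and the measured sex determination genes as diamonds. Doublesex lies at a gap of 1.53, where 5.4% of the genes of like brightness lie higher, and the 2 transformer-2 genes lie close to 0.

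AAEL004293, a paralogue of the splicing regulator transformer-2, was among the brightest genes of the testis arrays. It had intensities of 30839, 31743 and 29106 in T37 replicates 1, 2 and 3. In RED replicates 1, 2 and 3 it had 20937, 26228 and 23456. The lowest T37 array was thus above the highest RED array. Among all genes on the same array it stood at percentiles 97.8 to 98.3 in T37 and 95.3 to 97.1 in RED. On the log2 scale it averaged 14.90 ± 0.06 in T37 testes and 14.52 ± 0.16 in RED testes (SD over 3 arrays of each strain). The difference was 0.38 (SE 0.17, 95% interval -0.02 to 0.79; limma adjusted p = 0.24), and it did not pass. Of the 1000 genes nearest in brightness, 9.5% had a larger difference toward T37, 15.1% had all T37 arrays above all RED arrays, and 0.8% were called.

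AAEL009224, the other measured transformer-2 paralogue, was moderately bright in both of its rows. Row RA had intensities of 5457, 5474 and 4462 in T37 replicates 1, 2 and 3, and 3406, 4693 and 3985 in RED replicates 1, 2 and 3. The strains overlapped in this row, since T37 replicate 3 was below RED replicate 2. Row RB had 5232, 5364 and 4092 in T37 replicates 1, 2 and 3, and 2777, 3948 and 3217 in RED replicates 1, 2 and 3, so that the T37 arrays were all above the RED arrays. The row differences were 0.36 for RA (95% interval -0.12 to 0.83; limma adjusted p = 0.35 over all rows) and 0.57 for RB (95% interval 0.05 to 1.08; limma adjusted p = 0.19 over all rows).

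Averaged over both rows, AAEL009224 had a mean log2 intensity of 12.28 ± 0.19 in T37 testes and 11.82 ± 0.24 in RED testes (SD over 3 arrays of each strain). The difference was 0.46 (SE 0.20, 95% interval -0.04 to 0.96; limma adjusted p = 0.25), and it did not pass. T37 replicate 3 was the dimmest T37 array for this gene, by 0.33 below the mean of T37 replicates 1 and 2, and RED replicate 1 was the dimmest RED array. The averages overlapped slightly, at 4273 in T37 replicate 3 against 4305 in RED replicate 2. Of the 1000 genes nearest in brightness, 21.9% had a larger difference toward T37, 21.0% had all T37 arrays above all RED arrays, and the median difference of these neighbours was 0.11, also toward T37.

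Over the 4 rows, 2 had T37 arrays above RED arrays without overlap, where 15.3% of all rows did. By limma, 0 of the 4 rows had an adjusted p under 0.05, where 4.38% of all 13471 rows did. In the same fit 1 of the 4, row RB of AAEL009224, had an unadjusted p under 0.05, where 22.7% of all rows did. Row RB was called in 1 alternative, with array weights (0.64; limma adjusted p = 0.037). These weights gave RED replicate 3 only 0.21 and T37 replicate 2 as much as 4.76, and 29.3% of all rows were called with them. The genes themselves were not called with array weights, where 30.0% of all genes were, with an adjusted p of 0.074 by limma for AAEL004293 and of 0.060 by limma for AAEL009224.

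**Figure D3:**
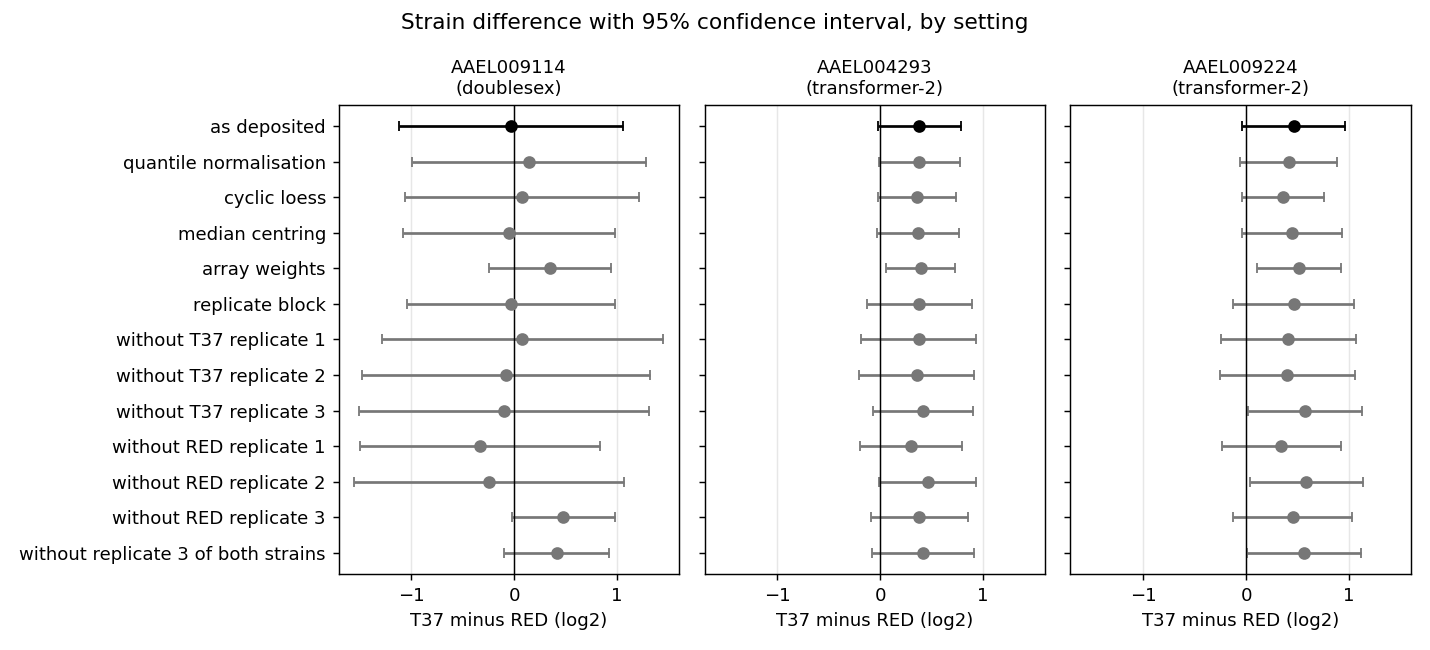
Difference between the strains, T37 minus RED, in log2 intensity for doublesex and the 2 measured transformer-2 genes, as deposited (black) and under 12 other settings (grey), with bars for the 95% confidence interval from limma. The transformer-2 genes keep positive values under every setting shown, while doublesex lies on either side of 0 and reaches 0.48 without RED replicate 3. The replicate block changes only the interval, by construction.

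The ratio of the AAEL009224 rows varied little within each strain and was higher in T37. Which probes read each row was not examined here, and the ratio itself is no measure of the transcripts' proportions. Only its change between the strains is compared. RB divided by RA was 0.959, 0.980 and 0.917 in T37 replicates 1, 2 and 3, and 0.815, 0.841 and 0.807 in RED replicates 1, 2 and 3. The strains did not overlap, with the lowest T37 ratio above the highest RED ratio. On the log2 scale RB minus RA was -0.07 ± 0.05 in T37 testes and -0.28 ± 0.03 in RED testes (SD over 3 arrays of each strain). The strains thus differed by 0.21, a 1.16-fold higher ratio in T37. The SD between replicates of this within-array difference, 0.041 when pooled over the strains, was smaller than that of most of the 420 genes with 2 rows, whose median was 0.14.

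Whether the rows differed in their strain difference was tested in 2 ways. By limma's diffSplice, which treats the rows as independent measurements, the difference did not pass (limma Simes-adjusted p = 0.999), and 0.198% of the 506 genes with several rows were called. The test of the difference taken within each array was chosen after these values were seen. Fitted by limma across the 420 genes with 2 rows, it gave an interval of 0.08 to 0.35 and an adjusted p of 0.14, where 2.38% of the genes were called. Its unadjusted p, from the same limma fit, was 0.0095, and 15.7% of the 420 genes were under 0.05 without adjustment. The strains' arrays did not overlap in 22.1% of these genes, and 32.6% had a larger absolute difference, and AAEL009224 ranked 26 by p. The difference stayed between 0.19 and 0.24 when any array was left out. The limma p-values of the within-array difference then rose, to between 0.014 and 0.036 unadjusted and between 0.17 and 0.42 adjusted. The probe sequences of the rows were not used here, and a difference in sequence under the probes was not tested.

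**Figure D4:**
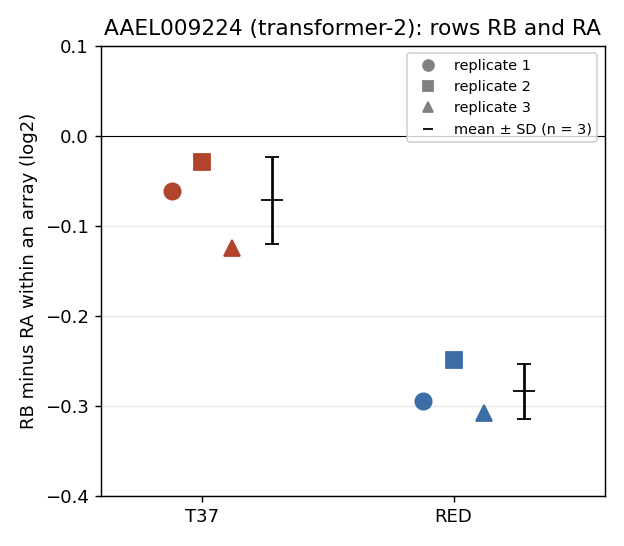
Log2 of row RB minus log2 of row RA of AAEL009224 within each array, for T37 and RED testes, with 1 point per array and the mean ± SD of 3 arrays. The T37 points lie between -0.12 and -0.03 and the RED points between -0.31 and -0.25.

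The order of brightness was the same on every array, with AAEL004293 above AAEL009224 and AAEL009224 above doublesex. Brightness depends on the probes as well as on the transcript, so this order describes intensities and is no order of RNA abundance. Within an array, AAEL004293 was brighter than AAEL009224 by 2.62 ± 0.13 in T37 testes and by 2.70 ± 0.08 in RED testes on the log2 scale (SD over 3 arrays of each strain). AAEL009224 was at percentiles 68.6 to 72.8 in T37 and 62.4 to 69.0 in RED. Doublesex was at percentiles 21.5 to 24.9 in T37 and at 13.0, 17.1 and 37.03 in RED replicates 1, 2 and 3. A low value could not be told from background, because no detection calls were used here.

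The strain differences of the 3 genes were compared with each other in 3 pairs, by an exact permutation test of the within-array difference, two-sided, for which the smallest possible p with 3 arrays against 3 is 0.1. The paralogues AAEL004293 and AAEL009224 differed in their strain difference by -0.08 (exact permutation p = 0.4). Doublesex minus AAEL004293 was -5.91 ± 0.22 in T37 testes and -5.49 ± 0.89 in RED testes (SD over 3 arrays of each strain), a gap of -0.42 (exact permutation p = 0.7). Doublesex minus AAEL009224 gave a gap of -0.49 (exact permutation p = 0.6). All adjusted exact p-values over the 3 pairs were 0.7, and without RED replicate 3 the gaps to doublesex were 0.10 and 0.02. The design could not reach the threshold, so these values do not show that the genes respond alike.

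The 2 transformer-2 genes followed each other over the arrays. Both were brightest on T37 replicate 2 and dimmest on RED replicate 1, an arrangement found in 8.74% of all genes. After the mean of the 6 arrays was taken from each gene, their profiles were 0.098 log2 units apart (root mean square over 6 arrays), and 98.6% of all genes were farther from AAEL004293 than AAEL009224 was. Doublesex was 0.57 from AAEL004293 and 0.61 from AAEL009224 by the same measure, and 33.4% of all genes were farther from AAEL004293 than doublesex was. These distances of doublesex rested largely on RED replicate 3. Over the 5 arrays without it they were 0.16 and 0.24, and the transformer-2 genes were 0.10 apart. Of all genes, 97.0% were then farther from AAEL004293 than AAEL009224 was, and 90.0% farther than doublesex was. From doublesex, 96.7% were then farther than AAEL004293 and 86.5% farther than AAEL009224. RED replicate 3 lay between the other RED arrays for the transformer-2 genes, and its log2 gap to the mean of RED replicates 1 and 2 was 0.0014 for AAEL004293 and -0.023 for AAEL009224.

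Outside the listed genes, the profiles nearest to doublesex over the 6 arrays were those of AAEL013430, at a distance of 0.079, and AAEL008070, at 0.082. Both were brightest on RED replicate 3, at 9.78 for AAEL013430 and 9.28 for AAEL008070 on the log2 scale. Without that array the nearest profiles to doublesex were those of other genes, AAEL001495 at 0.038 and AAEL009585 at 0.052, with AAEL013430 at 0.086 and AAEL008070 at 0.074. The profiles nearest to the mean of the transformer-2 genes were those of AAEL007137, at 0.023, and AAEL001958, at 0.025, and the same 2 genes were nearest without RED replicate 3. Their strain differences were 0.38 for AAEL007137 and 0.42 for AAEL001958 on the log2 scale, with limma adjusted p-values of 0.28 and 0.23. These genes are unnamed here, and with 6 arrays and 12813 genes near profiles are easily found.

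**Figure D5:**
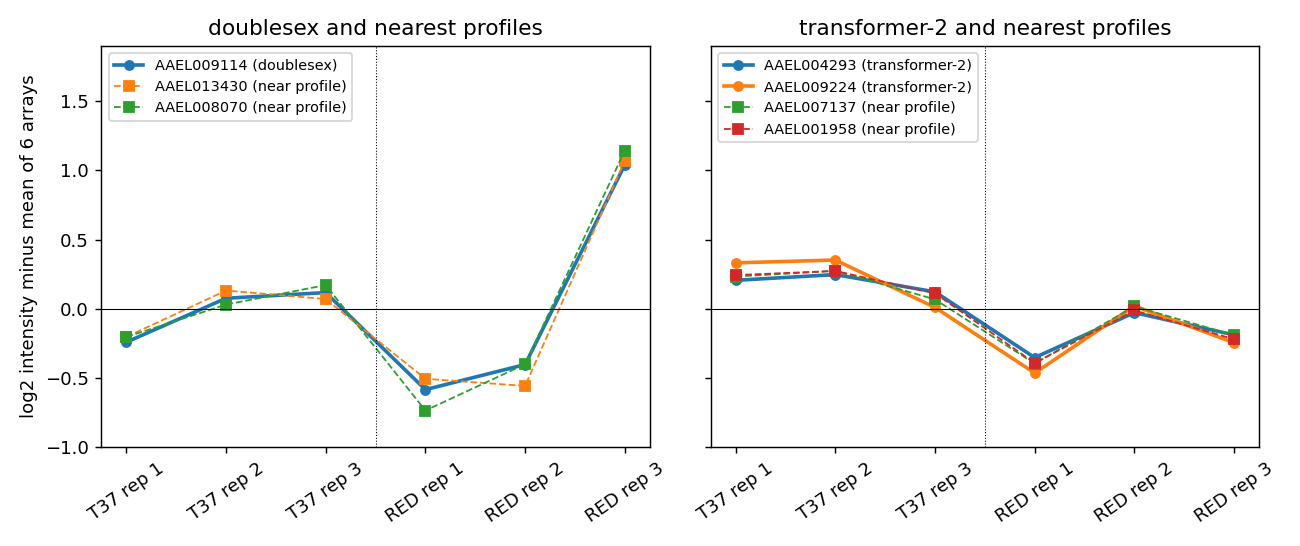
Log2 intensity minus the mean of the 6 arrays for doublesex (left) and the 2 measured transformer-2 genes (right), each with the 2 nearest profiles among the other genes as dashed lines, T37 arrays left of the dotted line and RED arrays right of it. Doublesex and its neighbours peak on RED replicate 3, and the transformer-2 genes are highest on T37 replicate 2 and lowest on RED replicate 1.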

How the data were processed

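Total RNA of pupal testes was measured on 6 one-colour arrays labelled with Cy3 by NimbleGen. The deposited table holds intensities on a linear scale that the authors made with RMA, per the submitters' processing notes. No RMA version, array design, annotation or genome build was given in the sources used here. Strains were taken from the sample titles. The descriptions of the RED samples also mention T37 replicates, against their titles and strain labels. Replicates were separate extractions. Spreads between them include technical error.

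Intensities were converted to log2 without a pseudocount, and rows of a gene were averaged. T37 was compared with RED by limma's moderated linear model (version 3.58.1, run under R 4.3.3, lmFit and eBayes, two-sided), with strain as the only term and all genes kept, fitted over 12813 genes or 13471 rows with Benjamini-Hochberg adjustment and a threshold of 0.05. Rows of a gene were compared with diffSplice, and pairs of genes with exact permutation tests in scipy 1.17.1. On arrays the number of replicates limits precision. Simulated data were made for the comparison of 12813 genes. Limma recovered 10 of 100 genes with a true log2 change of 1 and 60 of 100 with one of 2. It also made 6 false calls. Changes of either size, as well as smaller ones, can therefore be missed.

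The genes, lists and alternatives were chosen with earlier results of these data known. The alternatives were scaling, filters and a floor on dim values, eBayes priors, array weights, a replicate block, omission of arrays and the median over rows. Profile distances without RED replicate 3 were added after the data were seen. The genes named are those listed, and the 2 profiles nearest to doublesex and the 2 nearest to the mean transformer-2 profile. Other sex determination genes and cell type markers, planned by symbol, were not analysed, because 0 of the 19623 reference genes (AaegL5.0) carried an identifier of this series. No sequences were used here.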

Additional observations from a re-analysis of the deposited data

How the results depend on the processing

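The strain differences of AAEL004293 and AAEL009224 were positive under all 21 alternatives run for each, at 0.30 to 0.46 and 0.33 to 0.59 on the log2 scale, and passed limma's test under none (adjusted p 0.074 to 0.58 and 0.060 to 0.60). The filters, the floor, the eBayes priors, the replicate block and the median over rows left all differences they gave unchanged. Only scaling, array weights and omission of arrays therefore bear on the signs. Of 19 alternatives for doublesex, some without effect, 9 reversed its difference. It was 0.14 after quantile normalisation, 0.07 after cyclic loess and 0.35 with array weights (0.35 for the row). It was 0.08 without T37 replicate 1, 0.48 without RED replicate 3 and 0.41 without the third replicate of both strains. After scaling without RED replicate 3, added after the data were seen, it was 0.67 (quantile normalisation), 0.69 (cyclic loess) and 0.43 (median centring). When arrays were left out, it ranged from -0.33 to 0.48, for gene and row alike; RED replicate 3 gave the highest value and RED replicate 1 the lowest. The filters on dim genes removed doublesex. Of 127 alternative values for genes and rows, 1 passed, row RB of AAEL009224 with array weights (0.64).

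Between doublesex and AAEL004293 the gap in strain difference ran from -0.71 to 0.10 when arrays were left out, and between doublesex and AAEL009224 from -0.83 to 0.024; both were positive only without RED replicate 3. Between the transformer-2 genes it ran from -0.16 to -0.04, and reversed to 0.00038 after cyclic loess. The strain difference in RB minus RA of AAEL009224 was 0.19 to 0.24 under all 13 alternatives. With a replicate block, the differences were by construction as before (-0.03 for doublesex, 0.38 for AAEL004293 and 0.46 for AAEL009224), with limma adjusted p-values of 0.97, 0.35 and 0.33. For same-numbered arrays, the within-strain deviations correlated across genes at -0.25, -0.16 and -0.17 (replicates 1, 2 and 3). The best-matching RED arrays of T37 replicates 1, 2 and 3 were replicates 2, 3 and 1. Same-numbered arrays were thus not positively correlated, and none matched best. Such deviations cancel out within each strain, so the correlations are not independent. Pairing of the arrays was not tested otherwise. Limma called 0 genes with the block, which leaves fewer data for estimating error, so this count cannot decide on pairing. The cause of the doublesex reversals was not tested beyond leaving out arrays. With 3 arrays per strain, the median SE over all genes was 0.26.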
